A study of Mus musculus with 8 samples.

Results

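Conventional natural killer (NK) cells were taken from the leukocytes of mouse liver metastases and numbered 1459 of 48214 filtered cells. They were selected on their own transcript counts of 9 genes. A cell was counted as one when it held at least 1 unique molecular identifier (UMI, a counted transcript molecule) of Ncr1 or Klrb1c, at least 1 of Eomes, Klra4, Klra8 or S1pr5, none of Cd3e, Cxcr6 or Itga1, and no assembled T cell receptor contig under its barcode. The mice were 2 with the genotype Vav1CreTet2KO and 2 Tet2fl/fl controls, called knockout mice 1 and 2 and control mice 1 and 2 here. Both groups carried floxed Tet2, and Vav1-Cre is a recombinase driven by a promoter active throughout the blood lineages, so NK cells, T cells, B cells and myeloid cells of the knockout mice were all targeted. All 4 mice bore liver tumours at day 30 after Venus-AKTPM/LOH colorectal cancer cells were put into the spleen, and live CD45.2-stained cells from the tumours gave a 5' gene expression and a T cell receptor library per mouse. Age and sex of the mice were not given in the sources used here.

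NK cells are innate lymphocytes that kill target cells with perforin and granzymes and secrete interferon gamma and chemokines. In the mouse their receptors are lectins encoded side by side in the NK gene complex, among them the Ly49 receptors (Klra genes), most of which bind class I molecules and inhibit, while some, such as Ly49H (Klra8) and Ly49D (Klra4), activate. The liver holds a second population with Ncr1, the type 1 innate lymphoid cells (ILC1), which depend on T-bet without Eomes, stay in the tissue and carry CD49a (Itga1) and CXCR6. Conventional NK cells circulate, need Eomes, and mature from a CD27 stage to a stage marked by CD11b (Itgam), KLRG1 and CX3CR1. Tet2 encodes an enzyme that converts 5-methylcytosine to its oxidised forms, a step towards loss of DNA methylation.

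Knockout mice 1 and 2 gave 290 and 355 conventional NK cells, and control mice 1 and 2 gave 592 and 222. Their median depth was 4826.5, 4526, 4330 and 4937 UMIs per cell in that order of mice, and their summed depth lay between 1432577 and 3266627 UMIs per mouse. Scrublet marked 3.79%, 8.17%, 8.78% and 11.3% of them as doublets. RNA of other cells was found in them at levels that differed between mice. The summed level of 14 macrophage markers in conventional NK cells was 381, 2018, 3425 and 5608 CPM (UMIs scaled to a common library total), that of 10 B cell markers 435, 1161, 121 and 124 CPM, and that of 9 neutrophil markers 685, 169, 687 and 3108 CPM. None of the macrophage, B cell and neutrophil markers was at 0 in all mice. A gene is called prone to RNA of other cells here when the amount expected from the whole library reached 20% of its level in the higher group. That amount was the gene's library level times a ratio. The ratio was the level of macrophage or B cell markers in the cells over that in the library, whichever was higher. The amount can exceed the level found, so it is a rough estimate and not a measured share.

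The gate was applied in steps. Of all filtered cells, 4608 held Ncr1 or Klrb1c, 1848 of these also held Eomes, Klra4, Klra8 or S1pr5, 1636 of those had no Cd3e, 1465 neither Cxcr6 nor Itga1, and 1459 no contig. Thus only 6 cells were removed by the receptor library alone. The summed level of 12 T cell markers in the kept cells was 368 and 321 CPM in the knockout and 167 and 207 CPM in the control mice, Cd4 being at 0 in all 4, against 3560 to 4662 CPM for the same 12 markers in CD8 T cells of these mice. A Cd3d UMI was still present in 10.3%, 12.1%, 6.08% and 5.86% of the kept cells, and requiring Cd3d and Cd3g at 0 as well left 250, 295, 549 and 202 of them. The rule chose the cells, so their levels of the 9 genes it names are a description. In knockout mouse 1, knockout mouse 2, control mouse 1 and control mouse 2, Ncr1 was at 642, 615, 653 and 475 CPM, Eomes at 319, 259, 278 and 218 CPM, Klra4 at 591, 773, 489 and 250 CPM, and Klra8 at 203, 182, 230 and 131 CPM.

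Perforin, which the rule did not use, marked the cells as the label says. Prf1 was at 598, 632, 720 and 442 CPM in conventional NK cells, at 171, 126, 107 and 60.1 CPM in ILC1-like cells (the same gate but with Cxcr6 or Itga1 and without Eomes, Klra4, Klra8 and S1pr5, 942 cells) and at 54.7 to 60.8 CPM in CD8 T cells (with a contig and Cd8a or Cd8b1, without Cd4, 4057 cells). Gzma, encoding granzyme A, was at 5674 to 8362 CPM in conventional NK cells and 1509 to 3441 CPM in ILC1-like cells. The ILC1 genes Il7r, Cd200r1 and Tnfsf10 went the other way. Il7r, the interleukin-7 receptor chain, was at 4.90 to 14.004 CPM in conventional NK and 35.5 to 202 CPM in ILC1-like cells, and Cd200r1, an inhibitory receptor of liver ILC1, at 3.0 to 7.68 and 64.1 to 118 CPM. Tnfsf10, encoding TRAIL, was at 6.73 to 11.9 against 60.1 CPM and more. No mouse overlapped between the classes in any of these 5 genes.

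Members with exactly 1 UMI of the second set of genes made up 14.1%, 12.4%, 14.02% and 32.0% of the members, with Prf1 at 410, 600, 781 and 458 CPM. Cells that failed only for lack of any UMI of Eomes, Klra4, Klra8 and S1pr5 numbered 155, 177, 252 and 160, and their Prf1 level was 163, 183, 130 and 113 CPM. In the control mice those outside cells held Lyz2, a myeloid gene, at 8335 and 8383 CPM, against 3691 and 3272 CPM in the knockout mice.

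The Ly49 genes that the gate uses lie in 1 cluster on chromosome 6. In GRCm39 the annotated gene of Klra4 spans chr6:130020690-130044294, that of Klra8 chr6:130092152-130106938 and that of Klra1, encoding Ly49A, chr6:130340880-130363837, all on the minus strand. The 100 bases before each annotated start are shown for how alike the starts of the 2 gate genes are, with Klra1 beside them (RefSeq promoters, build GRCm38.p6, at chr6:130067272-130067371, chr6:130129899-130129998 and chr6:130386875-130386974, minus strand, 5′ to 3′). Capitals in the Klra4 and Klra8 lines mark the bases of one without an identical partner in the alignment to the other, and Klra1 is in lower case throughout.
Klra4: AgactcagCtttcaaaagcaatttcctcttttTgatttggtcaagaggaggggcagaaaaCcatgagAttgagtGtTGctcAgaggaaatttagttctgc
Klra8: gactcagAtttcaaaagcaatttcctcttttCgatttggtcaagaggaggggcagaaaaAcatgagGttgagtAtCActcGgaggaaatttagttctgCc
Klra1: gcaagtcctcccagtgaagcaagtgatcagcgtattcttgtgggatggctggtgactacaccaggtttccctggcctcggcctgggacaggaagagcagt
Klra4 and Klra8 were identical at 84.8% of 250 promoter bases, Klra4 and Klra1 at 49.2%, and Klra8 and Klra1 at 45.6%. Transcripts were not compared. Ly49 genes are a family of close relatives, and reads can be lost or shared between them, so levels of single Klra genes are uncertain.

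The share of conventional NK cells did not separate the genotypes, whereas their balance with ILC1-like cells did. Conventional NK cells made up 2.70% of filtered cells in knockout mouse 1 (95% exact binomial interval 2.40 to 3.02, counting error only), 3.06% in knockout mouse 2 (2.76 to 3.39), 4.82% in control mouse 1 (4.45 to 5.21) and 1.63% in control mouse 2 (1.43 to 1.86). The highest and the lowest share were thus both in control mice, and the exact two-sided permutation test over mice gave p = 1.0. ILC1-like cells made up 3.61% and 3.61% of filtered cells in the knockout mice and 0.42% and 0.62% in the control mice. These cells held 12 T cell markers at 940 and 905 CPM in the knockout and 380 and 299 CPM in the control mice. Their 14 macrophage markers were at 1868 and 1660 against 11447 and 8545 CPM. How many of them were cells of other types was not tested. Among both classes together, conventional NK cells were 42.8% and 45.9% in the knockout mice and 92.1% and 72.5% in the control mice, with no overlap. The means were 44.3% ± 2.19 and 82.3% ± 13.8 (SD, n = 2 mice each), and p was 0.33 by the exact two-sided permutation test, the smallest that 2 mice against 2 allow. Shares of filtered cells depend on what else the sort held. B cells made up 31.7% of filtered cells in the knockout mice and 4.24% in the control mice on average, and cells with a UMI of Lyz2 or C1qa 24.6% and 77.9%. Of cells without a UMI of Cd79a, Lyz2 or C1qa, the share of conventional NK cells was 3.58 percentage points lower in the knockout mice. Gating after each cell was thinned to 1000 UMIs gave a difference of 0.060 points in the other direction, and leaving out control mouse 1 one of 1.25 points.

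**Figure D1:**
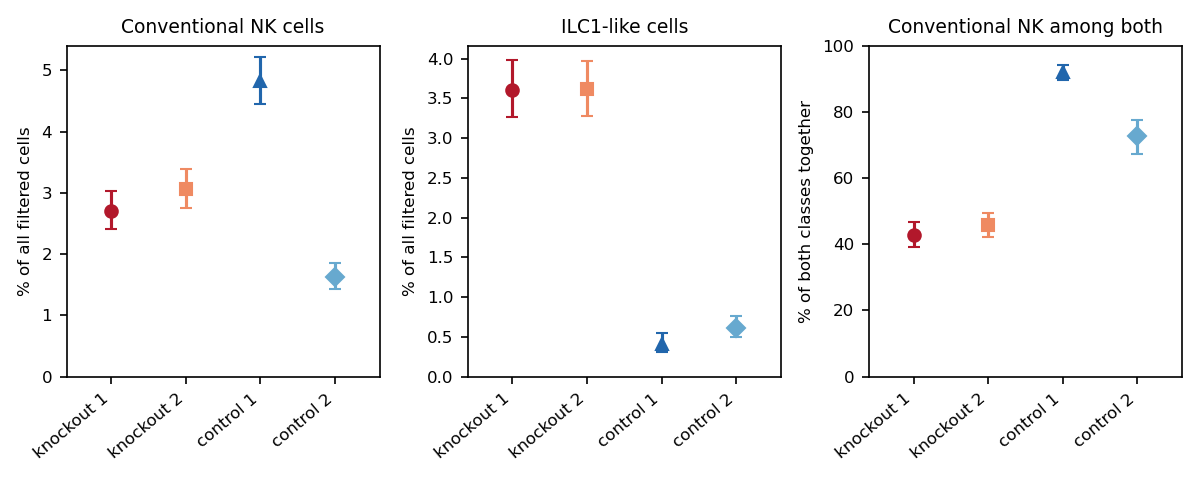
Percentage of conventional NK cells (left) and ILC1-like cells (middle) among all filtered cells, and of conventional NK cells among both classes (right), 1 point per mouse with its exact binomial interval (95%). Conventional NK shares of the control mice (4.82% and 1.63%) lie on both sides of the knockout mice, while ILC1-like shares are 3.61% in both knockout mice and 0.42% and 0.62% in the control mice.

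Maturation was read from the stage genes after thinning every cell to 1000 UMIs, since depth sets how many cells show a UMI. Cells with Itgam, Klrg1 or Cx3cr1 and without Cd27, called mature, were 24.6% (interval 19.7 to 29.9) and 19.4% (15.4 to 23.9) of conventional NK cells in knockout mice 1 and 2 and 26.01% and 29.1% in control mice 1 and 2. The groups did not overlap, with means of 22% ± 3.63 and 27.6% ± 2.18 (SD, n = 2 each, exact permutation p = 0.33, the smallest possible). With cells thinned to 2000 UMIs the shares were 35.8%, 27.8%, 39.3% and 33.96%, and the groups overlapped (exact two-sided permutation p = 0.67). Without thinning they were 43.4%, 40.6%, 50.5% and 37.8%, and the groups overlapped too. Cells with Cd27 alone were 5.54%, 7.04%, 4.39% and 6.36% after thinning to 1000 UMIs, without separation. At that depth 68.5%, 73.2%, 68.4% and 62.3% of the cells held no UMI of any stage gene, so most cells were not staged. How far detection set the difference in the mature share was not tested. Itgam is a gene that myeloid cells also express, and 32.7% of its level in the higher group was expected from RNA of other cells. For Cx3cr1 this was 40.4%. The part of such RNA in the mature share was not tested. Cd27 had a UMI in 5.57% to 8.64% of thinned conventional NK cells and in 0.18% to 0.35% of B cells.

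For gene levels, mature and CD27-only cells were taken without thinning. These were 126, 144, 299 and 84 mature and 48, 58, 63 and 40 CD27-only cells. They differed in the same way in all 4 mice for most genes of the stage lists, the 4 stage genes and the gate genes left out. Of 12 tested members of the list of the mature stage with at least 50 UMIs, 8 were higher in mature cells in every mouse and none was lower in every mouse. Of 10 members of the list of the CD27 stage, 8 were lower in mature cells in every mouse. Over all 361 listed genes with as many UMIs, 28.3% were higher and 12.7% lower in every mouse. Ly6c2, encoding a surface antigen gained late in maturation, was at 826, 657, 274 and 263 CPM in mature cells and at 25.8, 88.3, 40.5 and 68.3 CPM in CD27-only cells. The protease gene Cma1 had log2 differences of 4.83, 4.04, 3.04 and 2.40 on the log2(CPM + 1) scale, and Zeb2, a transcription factor of terminal NK maturation, 1.70, 2.16, 1.40 and 2.51. Prf1 was 2.23, 1.41, 1.35 and 1.53 higher in mature cells and Gzma 1.80, 1.20, 1.00 and 0.56 higher. Tcf7, encoding TCF-1 of early NK stages, had differences of -2.01, -1.57, -1.58 and -1.50, and Ltb, encoding lymphotoxin beta, -2.54, -2.19, -1.81 and -1.02. Both killing genes thus went with the mature cells and both early genes with the CD27-only cells in each mouse. Cd3d went with the CD27-only cells too, at 149, 152, 40.5 and 60.3 CPM against 18.9, 25.9, 10.01 and 37.5 CPM in mature cells. Ly6c2 was prone to RNA of other cells (23.2% expected), and the mature cells were picked in part on Itgam and Cx3cr1, described above. The part of residual T cells or of RNA of other cells in these differences was not tested. The cells of a class were not replicates, and no test was made of these differences.

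**Figure D2:**
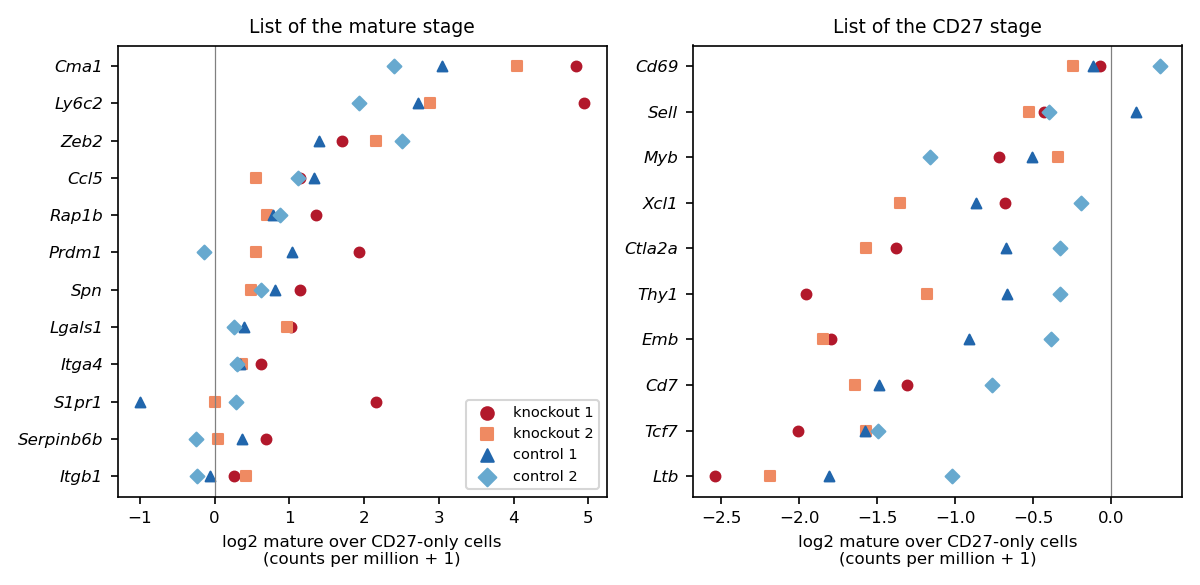
log2 difference in level between mature and CD27-only conventional NK cells for the members of the lists of the mature stage (left) and of the CD27 stage (right), 1 point per gene and mouse, on the log2(CPM + 1) scale. Cells were assigned to the stages without thinning. Cma1, Ly6c2 and Zeb2 lie above 1 in all 4 mice, and Ltb and Tcf7 below -1.

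Receptor use within the cells was read from the gate genes after thinning. Cells with a Klra8 but no Klra4 UMI were 8.65%, 5.35%, 14.02% and 9.55%, those with Klra4 alone 25.6%, 34.9%, 25% and 14.1%, and those with both 8.30%, 11.8%, 7.94% and 5.0% of conventional NK cells. Klra8 alone was lower and Klra4 alone higher in both knockout mice than in both control mice. As both genes are in the gate, these shares are descriptions and no test applies to them. Reads can also be exchanged between these genes. The levels that follow are from cells split on Klra8 without thinning. Cells with a Klra8 UMI had more Klra4 than the others in all 4 mice, at 798, 841, 564 and 387 against 475, 727, 407 and 178 CPM. Cells without one had to hold Klra4, Eomes or S1pr5 to pass the gate, so this too is a description. Cells with a Klra8 UMI had less Klrc1, encoding the inhibitory receptor NKG2A, at 207, 255, 218 and 140 against 472, 394, 328 and 184 CPM. Klrd1, encoding CD94, the partner chain of NKG2A, differed by at most 0.09 on the log2 scale in each mouse.

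The targeted gene was low in these cells. Tet2 was at 19.2 and 20.8 CPM in the knockout and 32.6 and 29.6 CPM in the control mice, with no overlap, a log2 change of -0.64 ± 0.23 (SE) that did not pass the test (adjusted p = 0.21, edgeR quasi-likelihood test, Benjamini-Hochberg adjustment). Of its level, 43.5% was expected from RNA of other cells, and 5' reads can lie outside the deleted part, so this value does not check the deletion.

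Across the genome the genotypes differed in a small set of genes. Of 9260 genes tested on sums per mouse (the 9 gate genes left out), 73 rose and 70 fell in knockout conventional NK cells at an adjusted p under 0.05 by edgeR, which is 1.54% of genes (0.788% up and 0.756% down), and 1457 had an unadjusted p under 0.05. Of the 143 called genes, 102 were prone to RNA of other cells, leaving 28 that rose and 13 that fell. Groups that did not overlap were common among all genes tested (49.6%). The spread that 2 mice per group can show is small, and edgeR borrows it across genes. With control mouse 2 left out 28 genes were called. Of 51 named genes with a call, 20, 24, 27 and 13 kept it without knockout mouse 1, knockout mouse 2, control mouse 1 and control mouse 2. In the sentences that follow, levels are CPM scaled by the trimmed mean of M values (TMM), changes are log2 knockout over control with their SE, and p is adjusted by edgeR over all genes tested.

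Receptor genes were among those that rose. Klra1, encoding the inhibitory receptor Ly49A, was at 137 and 159 CPM in the knockout and 53.1 and 64.0 CPM in the control mice, a log2 change of 1.35 ± 0.16 (adjusted p = 0.0054). Every knockout mouse lay above every control mouse, and the call held with each mouse left out (1.21 to 1.47), but not in cells without a Cd27 UMI (1.08). After thinning, 9.34% and 14.4% of knockout and 3.21% and 5.91% of control conventional NK cells had a Klra1 UMI, against at most 0.44% of B cells. Klrb1a, of the NKR-P1 lectin family, was at 244 and 212 against 127 and 103 CPM (0.98 ± 0.16, adjusted p = 0.017). Crtam (chr9:40880987-40915924, GRCm39, minus strand), an adhesion receptor of activated cytotoxic lymphocytes, was at 73.8 and 61.9 against 30.8 and 29.6 CPM (1.16 ± 0.18, adjusted p = 0.017), and Cd28, the costimulatory receptor, at 113 and 106 against 60.3 and 56.3 CPM (0.90 ± 0.15, adjusted p = 0.021). The groups did not overlap in any of the 3. Klrb1a lost its call without knockout mouse 1, knockout mouse 2 or control mouse 2 (0.84 to 1.08), Crtam without knockout mouse 1, control mouse 1 or control mouse 2 (1.05 to 1.19) and when cells were thinned to 1000 UMIs (0.36), gated at 2 UMIs (0.81) or without a Cd27 UMI (0.94), and Cd28 without any 1 mouse (0.86 to 0.96), with Cd3d and Cd3g also at 0 (0.78) and in cells without a Cd27 UMI (0.81). Cd28 is also on the list of T cell markers, whose 6 tested members all had positive values.

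The rest of the Ly49 family did not move as 1 block. Of 8 members tested, Klra1 rose, none fell, 5 had positive and 3 negative values, and the median was 0.48 (0.09 without knockout mouse 2), against -0.01 over all genes tested. Klra3, encoding Ly49C, was at 75.1 and 43.2 against 201 and 102 CPM (-1.40 ± 0.49, adjusted p = 0.33). Klra7, encoding the inhibitory receptor Ly49G, was at 404 and 635 against 383 and 388 CPM, and Klra9 at 271 and 161 against 160 and 95.01 CPM, neither past the test. Klra3 lay below and Klra7 and Klra9 above the control mice in both knockout mice, but their mice spread widely within a genotype.

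Of 17 activating receptors and adaptors, 2 rose (Klrb1a and Crtam) and 1 fell, with a median of 0.18. The gene that fell was Fcgr3, encoding an Fc receptor also of macrophages, at 50.7 and 66.0 against 149 and 235 CPM, and 73.2% of it was expected from RNA of other cells. Without cells holding Cd79a, Lyz2 or C1qa its change was -0.45 and not called, nor was it called without knockout mouse 1 or control mouse 2 (-1.51 to -1.34). Klrk1, encoding NKG2D, was at 585 and 472 against 429 and 405 CPM (0.34 ± 0.15, adjusted p = 0.30). Of 15 inhibitory receptors none rose and 1 fell (Pilra, a myeloid receptor, prone, with its call lost without control mouse 2 at -2.50). The median was -0.18, and -0.70 without control mouse 1 and 0.19 with prone genes left out. Klrc1 was at 378 and 344 against 275 and 170 CPM (0.69 ± 0.22, adjusted p = 0.19). Tigit, an inhibitory receptor for nectin-family ligands, was at 132 and 138 against 171 and 240 CPM (-0.59 ± 0.18, adjusted p = 0.14). Klrg1, Klrd1, Cd96, Lag3 and Havcr2 did not pass the test either.

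Both Nr4a2 and Nr4a3, of the NR4A family of orphan nuclear receptors, which antigen and cytokine receptor signals induce rapidly, rose. Nr4a3 was at 262 and 232 CPM in the knockout and 129 and 102 CPM in the control mice (1.08 ± 0.16, adjusted p = 0.013), and Nr4a2 at 765 and 668 against 421 and 343 CPM (0.91 ± 0.15, adjusted p = 0.019). Neither gene's groups overlapped. Nr4a3 lost its call without knockout mouse 1 or control mouse 2 (0.93 to 1.01), and Nr4a2 without knockout mouse 1, knockout mouse 2 or control mouse 2 (0.76 to 1.00). The third member, Nr4a1, was at 1630 and 1504 against 1269 and 874 CPM (0.55, adjusted p = 0.18). Both promoters hold half-sites of the cAMP response element, the sequence through which CREB proteins act. They are shown for the first 150 of the 250 bases before the start (RefSeq, GRCm38.p6, Nr4a2 at chr2:57124104-57124253 on the minus and Nr4a3 at chr4:48045055-48045204 on the plus strand, 5′ to 3′), with TGACG and its reverse complement CGTCA in capitals.
Nr4a2: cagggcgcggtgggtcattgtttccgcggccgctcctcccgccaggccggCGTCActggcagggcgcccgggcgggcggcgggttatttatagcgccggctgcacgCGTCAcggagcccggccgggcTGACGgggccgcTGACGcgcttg
Nr4a3: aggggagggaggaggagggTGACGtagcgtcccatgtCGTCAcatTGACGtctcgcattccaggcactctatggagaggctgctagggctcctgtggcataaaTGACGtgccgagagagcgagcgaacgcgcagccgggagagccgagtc
Each window holds 4 half-sites, counted on both strands. The same window of the first listed promoter held at least 1 in 8.3% of 27025 genes, and 4 or more in 8 genes (0.03%). The window was laid for Nr4a2 and Nr4a3 and leaves out the bases nearest the start, so these shares are no test of rarity. A match of letters is a description, and no binding was measured.

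Of the 27 tested members of the list of immediate early and dissociation stress genes, which tissue digestion also induces, 2 rose and 1 fell. Those that rose were the same Nr4a2 and Nr4a3. Ier3 fell and was prone, with 100% of its level expected from RNA of other cells by the rough estimate. The median of the list was 0.37. Its other members gave values in both directions, such as Fos (540 and 631 against 786 and 526 CPM), Jun (769 and 835 against 961 and 649 CPM) and Hspa1b (311 and 276 against 177 and 92.2 CPM), none past the test. The summed level of the 28 listed genes was 26808 and 26269 CPM in the knockout and 24723 and 16786 CPM in the control mice, so control mouse 2 stood low, and without it the median was 0.15. Beside it, 4 signal and stress genes rose that are not prone to RNA of other cells. Tob1, an antiproliferative gene of quiescent lymphocytes, was at 143 and 115 against 52.5 and 42.2 CPM (1.42 ± 0.18, adjusted p = 0.0073), with its call lost without control mouse 2 (1.29). Sertad1 was at 236 and 266 against 113 and 73.9 CPM (1.40), Dnaja1, a co-chaperone of HSP70, at 968 and 851 against 477 and 339 CPM (1.15), and the ubiquitin ligase subunit gene Wsb1 at 166 and 134 against 72.1 and 59.8 CPM (1.16). Sertad1 lost its call without knockout mouse 2 or control mouse 2 (1.15 to 1.31), Dnaja1 without knockout mouse 1, knockout mouse 2 or control mouse 2 (0.93 to 1.24), and Wsb1 without knockout mouse 1, control mouse 1 or control mouse 2 (1.02 to 1.32).

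Gm4956 and A930005H10Rik kept their call under every alternative that tested them. Gm4956, a gene model on chromosome 1, was at 160 and 201 CPM in the knockout and 56.9 and 49.3 CPM in the control mice (1.75 ± 0.17, adjusted p = 0.0018). A930005H10Rik was at 16.0 and 12.2 against 56.2 and 50.7 CPM (-1.94 ± 0.23, adjusted p = 0.0050). In both genes the mice of a genotype lay close to each other and far from the other genotype.

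The granzymes went separate ways. Gzmk, encoding granzyme K (chr13:113308142-113362442, GRCm39, minus strand), fell from 33.3 and 50.7 CPM in the control mice to 6.42 and 3.55 CPM in the knockout mice, a log2 change of -3.06 ± 0.37 (adjusted p = 0.0054), from 107 and 72 UMIs to 10 and 7. The groups lay far apart, though the call was lost without control mouse 2 (-2.77) and with cells thinned to 1000 UMIs (-4.43). Granzyme K is abundant in less mature NK cells and in memory T cells. It was the 1 gene called among 22 cytotoxic granule genes, whose median was 0.13, and -0.05 without control mouse 2. Gzma was at 8127 and 8490 against 8413 and 5721 CPM, Gzmb at 1129 and 1208 against 1269 and 586 CPM, and Prf1 at 601 and 642 against 731 and 445 CPM. In these 3 genes control mouse 1 was level with or above the knockout mice and control mouse 2 below all others.

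The same split ran through the secreted molecules. Ccl4 was at 3354 and 3770 against 3906 and 1253 CPM, Ccl3 at 1233 and 1408 against 1472 and 364 CPM, and Ifng, encoding interferon gamma, at 557 and 400 against 583 and 194 CPM. Control mouse 2 was lowest and control mouse 1 highest in all 3. None of 12 cytokines and chemokines was called (median 0.36, or -0.16 without control mouse 2). Of 22 transcription factors of NK cells none was called, with a median of 0.24. Tbx21, encoding T-bet, was at 379 and 321 against 256 and 196 CPM (0.62 ± 0.17, adjusted p = 0.11), and Tcf7 at 109 and 95.5 against 52.8 and 71.1 CPM (0.75 ± 0.18, adjusted p = 0.085). Both were higher in both knockout mice without passing the test. Zeb2, Irf8 and Prdm1 overlapped between genotypes. Il2rb, the receptor chain shared by interleukins 2 and 15 on which NK cells depend, was at 997 and 921 against 815 and 678 CPM (0.36 ± 0.14, adjusted p = 0.23).

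Of 25 proliferation genes tested, 1 fell. Mki67, a marker of cycling cells, was at 47.5 and 53.8 CPM in the knockout and 93.2 and 132 CPM in the control mice (-1.13 ± 0.20, adjusted p = 0.027), with no overlap. The call was lost without knockout mouse 1, knockout mouse 2 or control mouse 2 (-1.23 to -0.88), with Cd3d and Cd3g also at 0 (-0.83) and with cells thinned to 1000 UMIs (-1.04). Of the 25, 23 had negative values and 14 lay below both control mice in both knockout mice, as 25.5% of all genes tested did. The median was -0.59, against -0.01 over all genes, and between -0.85 (control mouse 1 left out) and -0.11 (cells without a Cd27 UMI) over the alternatives. Top2a was at 86.6 and 100.03 against 121 and 168 CPM, and Tk1, a thymidine kinase of S phase, at 17.3 and 24.9 against 43.2 and 59.1 CPM, neither past the test.

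Other named genes that fell and were not prone had varied roles. Zap70, the kinase that couples ITAM-bearing receptors, was at 48.8 and 58.9 against 117 and 103 CPM (-1.03 ± 0.17, adjusted p = 0.019). Gimap7, a GTPase of lymphocytes, was at 123 and 174 against 298 and 321 CPM (-1.06 ± 0.18, adjusted p = 0.021), whereas its neighbour on chromosome 6, Gimap3, rose from 95.4 and 119 to 263 and 203 CPM (1.13 ± 0.18, adjusted p = 0.016). Rgs16, a regulator of G protein signalling, was at 39.1 and 38.6 against 114 and 86.6 CPM (-1.39 ± 0.19, adjusted p = 0.010). The groups overlapped in none of the 4. Zap70 lost its call without any 1 mouse (-1.17 to -0.89), Gimap7 and Gimap3 without knockout mouse 1, control mouse 1 or control mouse 2 (-1.11 to -0.81 and 0.95 to 1.28), and Rgs16 without knockout mouse 1, knockout mouse 2 or control mouse 1 (-1.38 to -1.15). With cells thinned to 1000 UMIs the calls of Zap70 (-1.15), Gimap3 (0.94) and Rgs16 (-1.19) were lost. Gclm, a subunit of the glutathione synthesis enzyme, was at 106 and 134 against 219 and 201 CPM (-0.81 ± 0.16, adjusted p = 0.038), and lost its call without any 1 mouse (-0.99 to -0.64) and with cells holding Cd79a, Lyz2 or C1qa left out (-0.73). The other named genes that fell were 1700017B05Rik, Selenon, Camk2b and Gas7, and those that rose Jade2 and Mrps6. Each of these 6 lost its call without control mouse 2, among other mice.

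**Figure D3:**
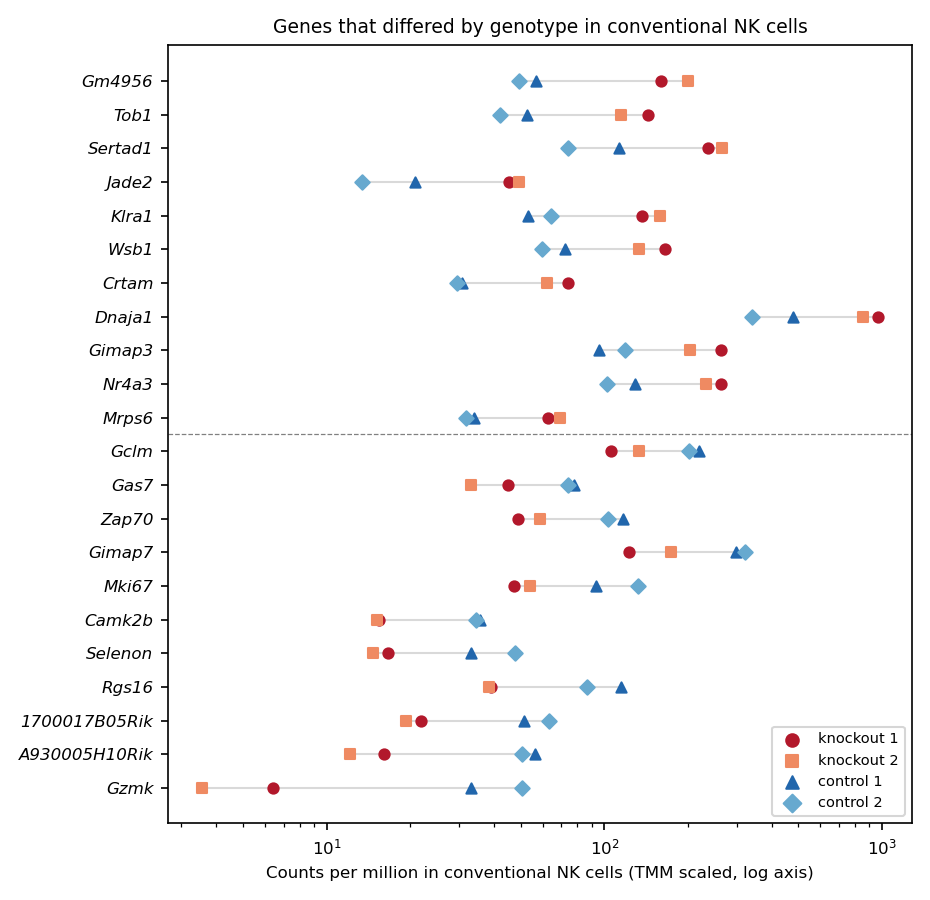
Level of 22 genes in conventional NK cells of each mouse, in TMM-scaled CPM on a log axis. These are among the genes of largest change that passed the test and were not prone to RNA of other cells, with those that rose above the dashed line and those that fell below it. Gzmk is at 3.55 to 6.42 CPM in the knockout and 33.3 to 50.7 CPM in the control mice, and in every row both knockout mice lie on one side of both control mice.

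The lists of energy metabolism held 1 call. Of 20 genes of glycolysis and hypoxia, 15 lay below both control mice in both knockout mice, as 25.5% of all genes tested did. Their summed level was lower in knockout mice outside conventional NK cells too. It was at 2698 and 3075 against 4702 and 4665 CPM in ILC1-like cells and 2522 and 3116 against 4099 and 4805 CPM in CD8 T cells. In the whole libraries it was at 2574 and 3036 against 6551 and 6653 CPM. Of the 20 genes, 19 had negative values in conventional NK cells and 1 fell, with a median of -0.43. That gene was Slc16a3, a lactate exporter, at 8.98 and 8.63 against 32.6 and 67.6 CPM, of which 85.5% was expected from RNA of other cells. It lost its call without knockout mouse 1, knockout mouse 2 or control mouse 2 (-2.44 to -1.89). Ldha, encoding lactate dehydrogenase A, was at 557 and 592 against 725 and 849 CPM and Pgk1 at 142 and 162 against 218 and 270 CPM, neither past the test. With cells holding Cd79a, Lyz2 or C1qa left out, the median of the list was -0.16. Of 21 nuclear genes of oxidative phosphorylation none was called, 19 had negative values, and the median was -0.14. Of 15 DNA methylation genes, among them Tet2, none was called (median -0.33).

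Lists of class I presentation and of interferon genes had few calls. Of 20 genes of class I presentation 2 rose, the non-classical H2-T22 (230 and 268 against 159 and 141 CPM, 0.73 ± 0.15, adjusted p = 0.045) and H2-T23, encoding Qa-1, which presents the peptide that NKG2A reads (295 and 270 against 164 and 149 CPM, 0.85 ± 0.14, adjusted p = 0.019). H2-T22 lost its call without any 1 mouse (0.61 to 0.85) and H2-T23 likewise (0.78 to 0.92), as both did with cells thinned to 1000 UMIs (0.51 and 0.62). H2-T22 was called in only 7 of 18 alternatives. Its call was also lost with DESeq2, with a mean of at least 20 CPM, with doublets removed and with Cd3d and Cd3g also at 0. The same held with cells holding Cd79a, Lyz2 or C1qa left out and in cells without a Cd27 UMI. The list's median was 0.13. H2 genes are close relatives, so reads can be shared between them, and 22.3% of H2-T23 was expected from RNA of other cells. Of 24 type I interferon genes 1 rose, Irf7, at 84.7 and 97.5 against 49.1 and 42.9 CPM (0.97 ± 0.17, adjusted p = 0.025, 40.8% expected from RNA of other cells). Its call was lost without any 1 mouse (0.87 to 1.09), with DESeq2 (0.99) and in cells without a Cd27 UMI (0.79). The list had 21 positive values and a median of 0.26, which ranged from 0.01 (knockout mouse 2 left out) to 0.75 (knockout mouse 1 left out). Of 22 interferon gamma genes none rose and 2 fell, Cxcl9 and Gbp2, both prone, with 11 positive and 11 negative values and a median of 0.02. Isg15 was at 114 and 183 against 89.5 and 30.3 CPM.

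**Figure D4:**
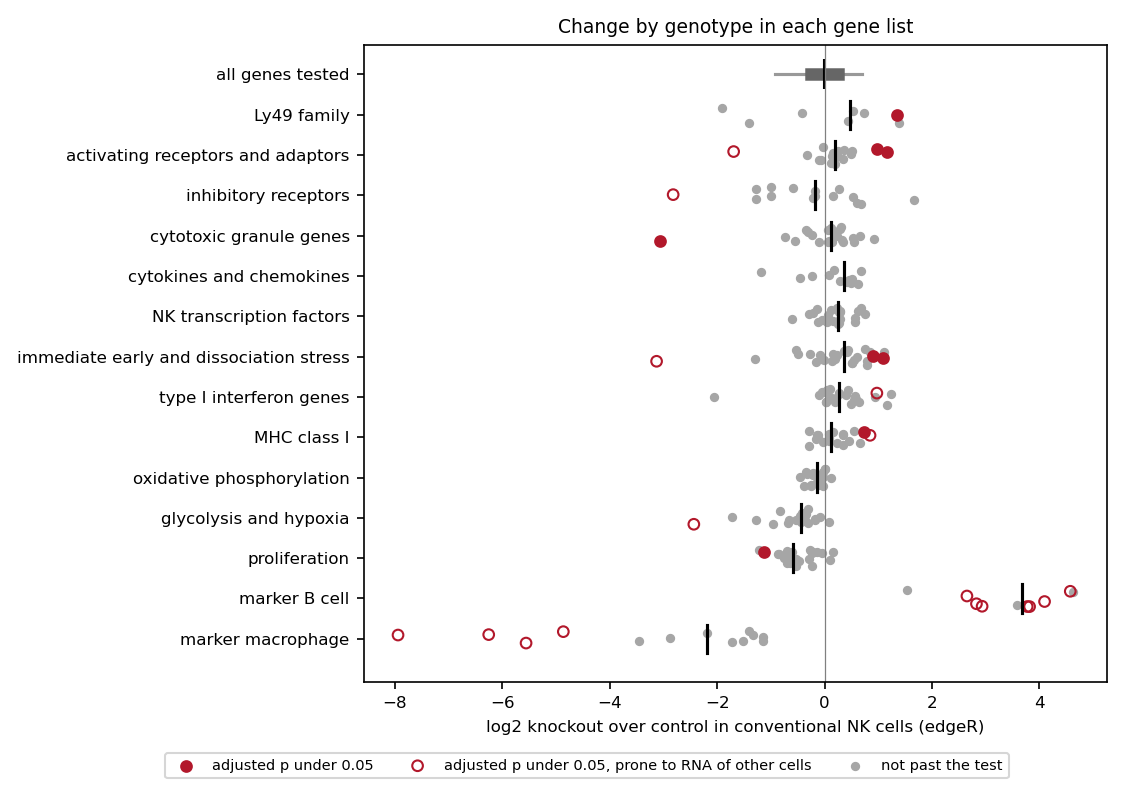
log2 change between genotypes in conventional NK cells for the members of 14 gene lists, 1 point per gene, with a bar at each list's median and, for all genes tested, a thick line from the 25th to the 75th and a thin line from the 5th to the 95th percentile. Proliferation (median -0.59) and glycolysis and hypoxia (-0.43) lie to the left, and the called members of the B cell and macrophage marker lists are all prone to RNA of other cells. Those marker lists set the expected amount of such RNA, so this was largely fixed beforehand.

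Most of the largest changes were of genes of other cells. All 10 tested B cell markers had positive values and 7 rose, among them Ebf1 (52.6 and 93.4 against 4.97 and 2.81 CPM). The 13 tested macrophage markers had negative values and 4 fell, such as Arg1, encoding arginase 1, at 1.92 and 0.51 against 75.5 and 110 CPM, and C1qc at 1.28 and 1.52 against 55.3 and 87.3 CPM. Of 7 neutrophil markers 3 fell (Il1r2, G0s2 and Mmp9). Ebf1 lost its call without control mouse 1 or control mouse 2 (3.87 to 4.68), while Arg1 and C1qc kept theirs with each mouse left out. Arg1 lost it with doublets removed (-5.43), and C1qc with the gate at 2 UMIs (-5.13) and in cells without a Cd27 UMI. None of the called members of these lists was below the 20% limit. For the B cell and macrophage lists this was largely fixed beforehand, as their markers set the expected amount. In the whole libraries, B cell markers were at 3936 and 4100 CPM in knockout and 874 and 544 CPM in control mice. Macrophage markers were at 6698 and 6621 against 21179 and 23318 CPM there. Neutrophil markers overlapped, at 4866 and 1632 against 3826 and 9593 CPM. In conventional NK cells of the knockout mice, macrophage markers were at 381 and 2018 CPM at similar library levels. Whether the makeup of the tumours set the changes of these lists was not tested. Nor was the part of these lists in the calls of other genes. Of the T cell markers 6 were tested and 3 rose. Cd28 is described above, Cd3g was at 53.3 and 45.7 against 6.22 and 16.9 CPM, and Cd3d at 62.2 and 57.4 against 17.1 and 31.0 CPM, with 146% and 82.5% of their levels expected from RNA of other cells. Both lost their calls without knockout mouse 1, knockout mouse 2 or control mouse 1 (1.54 to 2.38 and 0.95 to 1.46). The same held with cells thinned to 1000 UMIs and with a mean of at least 20 CPM. Cd3d also lost its call with doublets removed, with the gate at 2 UMIs and in cells without a Cd27 UMI. With Cd3d and Cd3g also required at 0, 124 genes were called, of which 106 were among the 143. Tgfbr1, a receptor chain for TGF-beta, rose from 27.0 and 26.7 to 70.6 and 59.4 CPM (1.26 ± 0.19, adjusted p = 0.014, 26.1% expected from RNA of other cells), and lost its call without knockout mouse 1, control mouse 1 or control mouse 2 (1.16 to 1.27). Ly6c2 rose from 181 and 203 to 368 and 398 CPM (1.00 ± 0.14, adjusted p = 0.011, 23.2% expected) and was the 1 call among 15 genes of the mature stage (median 0.07), whereas none of 13 genes of the CD27 stage was called (median 0.18). Without knockout mouse 2, control mouse 1 or control mouse 2, Ly6c2 had 0.92 to 1.07 and no call. Its call was also lost with cells holding Cd79a, Lyz2 or C1qa left out. Cish, a feedback inhibitor of cytokine receptors in NK cells, fell from 36.0 and 51.4 to 9.62 and 13.7 CPM (-1.84 ± 0.29, adjusted p = 0.016, 30.9% expected) and lost its call without knockout mouse 1 or control mouse 2 (-1.62 to -1.61). With cells thinned to 1000 UMIs the calls of Tgfbr1 and Cish were lost too.

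The genotype effect was then compared with that in ILC1-like cells of the same mice, with mouse as a block. Of 10079 genes tested, the effect differed for 41 (0.407%) at an adjusted p under 0.05 by edgeR, 19 more positive in conventional NK cells (0.189%) and 22 more negative (0.218%), and 884 had an unadjusted p under 0.05. ILC1-like cells were few in the control mice (51 and 84). The summed level of 14 macrophage markers in ILC1-like cells was 1868 and 1660 CPM in the knockout and 11447 and 8545 CPM in the control mice, and that of 12 T cell markers 940 and 905 against 380 and 299 CPM. A Cd3g UMI was present in 41.5% and 45.3% of knockout and 19.6% and 25% of control ILC1-like cells. The part of these in the differences was not tested. Levels here are CPM scaled over both classes. The largest difference of the first direction was that of Serpinb9b (6.01), which rests on few molecules in ILC1-like cells and was -0.054 with the gate set at 2 UMIs. H1f5, a replication-dependent linker histone gene, was at 75.7 and 119 against 121 and 190 CPM in conventional NK cells and at 11.8 and 27.9 against 186 and 271 CPM in ILC1-like cells, a difference of effects of 2.88 ± 0.23 (adjusted p = 1.3e-05). Rrm2, Cdca8, Tk1 and the histone gene H2ac8 differed in the same direction. The mean levels of these 5 genes were lower in knockout mice in both classes, and by more in ILC1-like cells. H1f5 kept its call with each mouse left out (2.65 to 3.25) and lost it with the gate set at 2 UMIs (1.79), as the other 4 did. Rrm2 lost it without knockout mouse 1, control mouse 1 or control mouse 2 (1.81 to 2.54), Cdca8 without knockout mouse 1, knockout mouse 2 or control mouse 2 (1.43 to 1.97), H2ac8 without knockout mouse 1 or control mouse 2 (1.62 to 1.71), and Tk1 without any 1 mouse (1.69 to 2.27).

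In the second direction, Thy1, a surface protein of lymphocytes, was at 176 and 182 against 304 and 597 CPM in conventional NK cells and at 391 and 437 against 326 and 443 CPM in ILC1-like cells (-1.39 ± 0.18). Rgs1, which curbs chemokine receptor signals, was at 527 and 554 against 873 and 565 CPM in conventional NK cells and at 2056 and 2187 against 1186 and 1063 CPM in ILC1-like cells (-1.30 ± 0.16). Fgl2, an immunosuppressive secreted protein, was at 116 and 116 against 139 and 121 CPM and at 465 and 474 against 191 and 175 CPM (-1.53 ± 0.18). Rgs1 and Fgl2 were higher in knockout ILC1-like cells, with no such rise in conventional NK cells. Gimap7 had a difference of -1.26. Thy1, Fgl2 and Gimap7 lost the call without knockout mouse 1 or control mouse 2 (-1.45 to -1.10, -1.56 to -1.55 and -1.24 to -1.12), and Rgs1 without knockout mouse 1 (-1.31).

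Against CD8 T cells, the effect differed for 43 of 11457 genes (0.375%), 31 more positive in conventional NK cells (0.271%) and 12 more negative (0.105%), with 759 at an unadjusted p under 0.05. Crtam turned around between the classes. It was at 70.5 and 59.9 against 29.7 and 27.8 CPM in conventional NK cells and at 33.7 and 32.4 against 66.1 and 67.4 CPM in CD8 T cells, a difference of effects of 2.18 ± 0.21, called with each mouse left out (2.09 to 2.26). Setbp1 was at 98.1 and 96.7 against 83.8 and 51.1 CPM and at 9.28 and 10.6 against 27.8 and 23.8 CPM (1.91 ± 0.23). Xcl1, the chemokine that draws cross-presenting dendritic cells, was at 988 and 1300 against 1304 and 833 CPM and at 328 and 508 against 1003 and 521 CPM (0.95 ± 0.17), and lost its call without knockout mouse 1 (0.83). Zap70 was at 46.6 and 56.9 against 113 and 96.8 CPM in conventional NK cells and level in CD8 T cells, at 158 and 169 against 169 and 150 CPM (-1.05 ± 0.17). Gimap7 (-1.41) and Thy1 (-1.27) were lower in knockout conventional NK cells and not in CD8 T cells, as was so beside ILC1-like cells. Setbp1, Zap70, Gimap7 and Thy1 kept their calls with each mouse left out, but Thy1 lost it with RLE normalization (-1.26) and with the gate at 2 UMIs (-1.40).

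**Figure D5:**
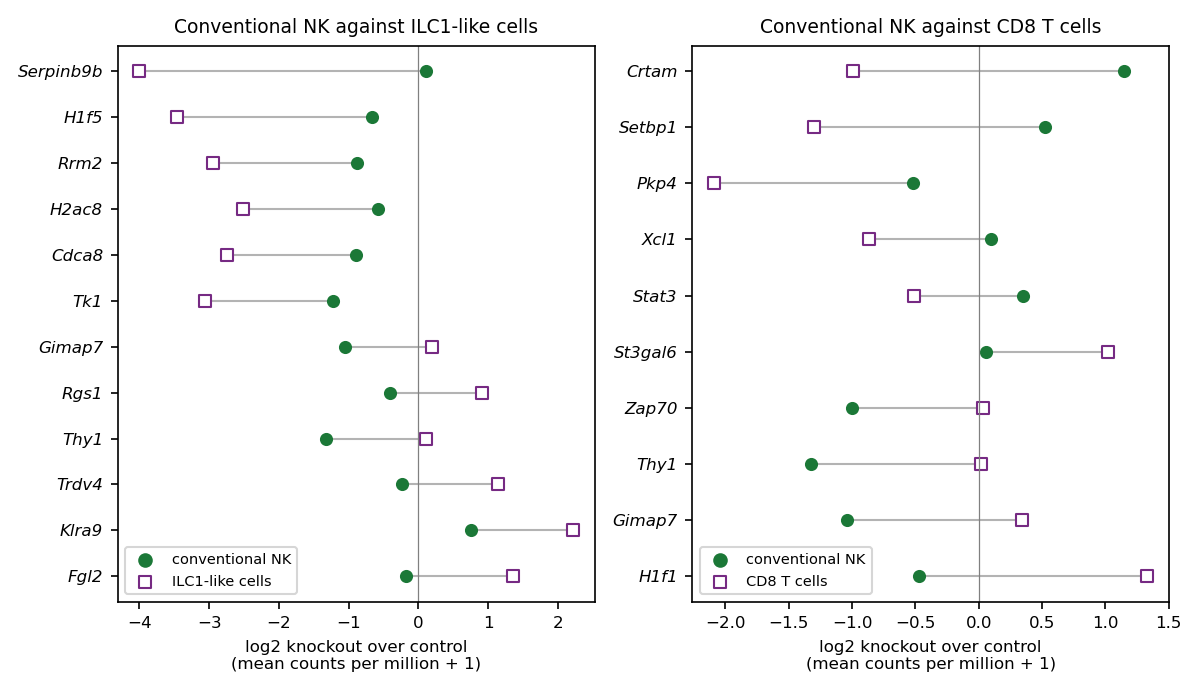
log2 knockout over control, from mean CPM + 1, in conventional NK cells (filled circles) and in ILC1-like cells (left) or CD8 T cells (right, open squares), for genes whose genotype effect differed between the classes. Crtam is at 1.15 in conventional NK and -0.99 in CD8 T cells, and H1f5 at -0.67 in conventional NK and -3.46 in ILC1-like cells.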

How the data were processed

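Tools named in the submitters' processing notes are Cell Ranger (8.0.1), Seurat (5.0.1) and R (4.4.1), with the build GRCm39. The matrices were deposited as unscaled UMI counts per gene and barcode, and the deposited contig tables give UMI and read counts per contig. Filtering removed barcodes under 200 genes or above 10% mitochondrial UMIs. Scrublet (scanpy 1.11.5) called doublets, which stayed in the main tests. UMIs were summed per mouse and class and tested with edgeR 4.0.16 (filterByExpr, TMM, robust quasi-likelihood fit, Benjamini-Hochberg adjustment, threshold 0.05). Classes were compared by a genotype by class term with mouse as a block. Named were the 12 largest changes per direction that were called, not prone, apart between groups and at a mean of at least 20 CPM, called members of each list (at most 4, by p), a core set, and the 6 largest differences per direction of each class comparison. On simulated data, 40.8% of 2-fold and 91.6% of 4-fold changes were recovered in conventional NK cells, and 32.0% and 47.7% of 4-fold differences against ILC1-like and CD8 T cells. The cells and lists were chosen with earlier results of these data known. Alternatives changed normalization, test (DESeq2 1.42.0), block, filters, gate, thinning and mice. Any 2 libraries shared 272 to 303 barcodes. The labels call the mice biological replicates. Results for some items are not reported here.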

Additional observations from a re-analysis of the deposited data

Results flagged for a closer look

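The genotype effect differed between conventional NK cells and another class, by the test of the difference itself, for the genes given here as the difference of log2 effects. Against ILC1-like cells the differences not given in full above were 6.01 for Serpinb9b, 2.19 for Rrm2, 1.97 for H2ac8, 1.95 for Cdca8 and 1.95 for Tk1, beside 2.88 for H1f5, and -1.53 for Fgl2, -1.47 for Klra9, -1.41 for Trdv4, -1.39 for Thy1, -1.3 for Rgs1 and -1.26 for Gimap7.

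Serpinb9b, a granzyme inhibitor gene, was at 101.2 and 151 against 106 and 128 CPM in conventional NK cells and at 0.47 and 0 against 21.6 and 16.0 CPM in ILC1-like cells, so its fitted value rests on few molecules and is no bound. It was not called without control mouse 2 (6.43) and was -0.054 with the gate set at 2 UMIs. Klra9 was at 276 and 167 against 165 and 96.2 CPM in conventional NK cells and at 211 and 145 against 43.1 and 31.9 CPM in ILC1-like cells, and lost its call without any 1 mouse (-1.62 to -1.28). Trdv4, a T cell receptor delta segment, was at 72.5 and 62.0 against 76.7 and 82.0 CPM and at 167 and 166 against 86.3 and 63.8 CPM, and lost its call without knockout mouse 1, knockout mouse 2 or control mouse 2 (-1.52 to -1.14).

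Against CD8 T cells the differences were 2.18 for Crtam, 1.91 for Setbp1, 1.65 for Pkp4, 0.95 for Xcl1 and 0.88 for Stat3, and -1.82 for H1f1, -1.41 for Gimap7, -1.27 for Thy1, -1.05 for Zap70 and -0.97 for St3gal6. Stat3, a cytokine signal transducer, was at 300 and 314 against 283 and 198 CPM in conventional NK cells and at 154 and 180 against 246 and 231 CPM in CD8 T cells. Its call was lost without knockout mouse 1 or control mouse 2 (0.67 to 0.80), as was that of H1f1 (-1.44 to -1.40). Those of Pkp4 (1.62) and St3gal6 (-0.73) were lost without control mouse 2.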

How the results depend on the processing

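The number of genes called by genotype in conventional NK cells (143) was 817 with no filter on low counts, 75 with a mean of at least 20 CPM, 88 with cells holding Cd79a, Lyz2 or C1qa left out, 47 with cells thinned to 1000 UMIs, 68 with genes prone to RNA of other cells left out, and 28 to 138 with 1 mouse left out (98 without knockout mouse 1, 28 without control mouse 2). DESeq2 called 150, of which 106 were among the 143. Of the 51 named genes with a call, 20 lost it with cells thinned to 1000 UMIs, 12 with doublets removed and 7 with DESeq2. With the replicate block 791 genes were called, but the labels pair no mice by number: the deviations of mice 1 correlated at r = 0.15 over 5681 genes, with 2 numbers only. In cells without a Cd27 UMI, an alternative chosen after seeing the data, 144 were called. The 41 genes whose effect differed from ILC1-like cells became 149 with no filter on low counts, 66 with doublets removed, 21 with the gate at 2 UMIs, 96 with prone genes left out, and 6 to 43 with 1 mouse left out (8 without knockout mouse 1, 26 without control mouse 1, 6 without control mouse 2). The 43 that differed from CD8 T cells became 175 with no filter, 17 with prone genes left out, and 37 to 256 with 1 mouse left out (142 and 192 without knockout mice 1 and 2, 256 without control mouse 1). In the latter fits the lone mouse of a group is assumed to vary like the others. Serpinb9b against ILC1-like cells was -0.054 with the gate at 2 UMIs, and the median of the cytotoxic granule genes was -0.053 without control mouse 2 and 0.295 without control mouse 1. The share of conventional NK cells (knockout minus control, in percentage points) was -3.58 among cells without Cd79a, Lyz2 or C1qa, 0.060 with the gate after thinning to 1000 UMIs, and -1.94 to 1.25 with 1 mouse left out (1.25 without control mouse 1). The share among conventional NK and ILC1-like cells was -47.7 to -28.2 with 1 mouse left out. The mature share was -9.30 with the gate at 2 UMIs and -8.12 to -2.98 with 1 mouse left out. The causes were not tested. ILC1-like cells of control mouse 1 held 365774 UMIs in all, which limits that comparison.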
